A study of Rattus norvegicus with 6 samples.

Results

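The genes described here are 193 olfactory receptor genes that gave usable ratios in striatum, salivary glands or peripheral leukocytes of the rat, all of them tissues outside the nose. They were chosen by symbol: a symbol made of Or, digits and then a letter, with a value on both arrays of at least 1 tissue. The platform carries 1040 such symbols, out of 14871 genes named by features with exactly 1 symbol. Of the other receptor symbols, 771 lacked values altogether and 76 had values, but on both arrays of no tissue. No measured ratio entered the choice, but the presence of a value did, so counts and medians below describe the genes that have values and not the 1040. Each of the 193 matched a protein-coding rat gene of the same symbol in RefSeq through its Entrez identifier.

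The samples are 6 two-colour Agilent arrays, 2 for each tissue, and each sets RNA of tickled rats (Cy5) against RNA of 1 comparator (Cy3), either light touch or no stimulus. All animals were male Wistar rats kept in single, screened cages from weaning at 21 days and sampled at 60 days. Tickling and light touch were given on weekdays over 4 weeks, 15 s of stimulation following each 15 s of rest; tickling imitates play and brings out 50 kHz calls, and light touch served to separate handling from tickling. The labels give 4 animals per condition, without saying whether an array holds a pool or 1 animal, and their extraction text names hypothalamus for every sample.

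There is 1 array per comparison and no dye swap. No test, standard deviation or p-value can be given, the number of arrays limits the precision, and an effect of tickling and an effect of the Cy5 dye cannot be told apart. Values are log2 ratios of tickled over comparator as deposited. Their direction rests on the dyes in the labels, and they are read here in base 2, although natural logs would be possible. Where a tissue has a pair of values without further words, they are those over no stimulus and over light touch. A ratio carries no level, so nothing here says how much receptor RNA a tissue holds. In a tissue sample, fewer cells of a type and less RNA per cell cannot be told apart either. Both arrays of a tissue carry tickled RNA. Whether it is the same extract is not given, so they cannot be taken as independent of each other. Among genes with 2 or more probes, the median standard deviation between probes of a gene lay between 0.0853 and 0.199 from array to array, and 191 of the 193 receptor genes have a single probe and so lack even that check.

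Olfactory receptors are G protein-coupled receptors that bind odorants. In the olfactory epithelium each sensory neuron expresses a single receptor allele, and binding is passed on through the G protein alpha subunit encoded by Gnal, adenylyl cyclase 3 and a cyclic nucleotide-gated channel. The genes form the largest family of the rat genome and lie in clusters of near copies, most with the whole coding sequence in 1 exon. Families numbered 51 to 56 form class I, first known from fish and thought of as receptors for water-soluble odorants; the remaining families are class II. Receptor transcripts have been found in many tissues outside the nose, usually at low levels and with few known functions.

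The 193 genes were short as annotated. The RefSeq span of a receptor gene had a median of 942 bases, against 19234.5 bases for the 14770 protein-coding genes of the array matched in the same way, and 177 of the 193 spanned under 1000 bases. In gene order, 180 of the 193 lay next to another receptor gene or receptor pseudogene, and 35 lay next to another of the 193. Probe sequences were not used here, so relatedness was read from the start of the coding sequence in RefSeq (assembly GRCr8). Of the 193 genes, 162 had an entry in the table of gene starts, and all 162 began at the ATG start codon, as did 97.4% of receptor entries, against 10.5% of all entries. A gene annotated from its ATG holds no untranslated sequence before it. The spans of receptor genes and of all genes are therefore not like for like, and the true length of the receptor genes was not tested.

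Over the first 50 coding bases, 66 of these 162 genes matched another receptor gene at 90% or more and 16 were identical to one, so that a probe may read several genes. The median identity to the closest receptor was 84% and the lowest 46%. The coding starts of 4 genes of subfamily Or8c are shown because 3 of them were 2-fold or more apart on an array and 1, Or8c10b, had values above 0 on every array. Capitals mark bases that differ from Or8c16. They lie at chr8:47255962-47256011 for Or8c16, chr8:47365815-47365864 for Or8c20, chr8:47407771-47407820 for Or8c11 and chr8:47348578-47348627 for Or8c10b, all on the plus strand.
Or8c16: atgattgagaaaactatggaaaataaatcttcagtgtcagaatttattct
Or8c20: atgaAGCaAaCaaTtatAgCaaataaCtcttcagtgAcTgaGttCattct
Or8c11: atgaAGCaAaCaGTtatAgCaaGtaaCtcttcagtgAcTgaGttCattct
Or8c10b: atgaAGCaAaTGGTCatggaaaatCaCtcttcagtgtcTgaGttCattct
Or8c20, Or8c11 and Or8c10b differ from Or8c16 at 13, 15 and 14 of the 50 bases. Or8c11 and Or8c20 are 96% identical to each other.

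The coding starts of 3 genes of subfamily Or5h are shown because the first pair is identical over these bases and only 1 of the pair passed 2-fold. Capitals mark bases that differ from Or5h17c. The stretches lie on the minus strand at chr11:54987952-54988001 for Or5h17c, chr11:54964977-54965026 for Or5h17b and chr11:54604368-54604417 for Or5h26.
Or5h17c: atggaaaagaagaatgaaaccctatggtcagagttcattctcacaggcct
Or5h17b: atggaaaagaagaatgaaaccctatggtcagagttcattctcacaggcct
Or5h26: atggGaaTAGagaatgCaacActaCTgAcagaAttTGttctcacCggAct
Or5h26, which differs from Or5h17c at 14 of the 50 bases, had a value on all 6 arrays.

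Most receptor genes on the platform had no value in any tissue. Values on both arrays were present for 145 receptor genes in striatum (13.9% of 1040), 153 in salivary glands (14.7%) and 84 in leukocytes (8.08%). Among all genes the shares were 72.0%, 69.6% and 39.1% for the same tissues. Why a value was left blank is not stated in any source used here, so a value is not evidence of expression and a blank is not evidence of its absence. Class I receptors had values at a share (23 of 113, 20.4%) near that of class II (170 of 927, 18.3%). The share differed more between families, with 33 of 107 in family Or2 (30.8%), 16 of 65 in Or52 (24.6%), 22 of 142 in Or4 (15.5%), 16 of 118 in Or8 (13.6%) and 17 of 145 in Or5 (11.7%).

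**Figure D1:**
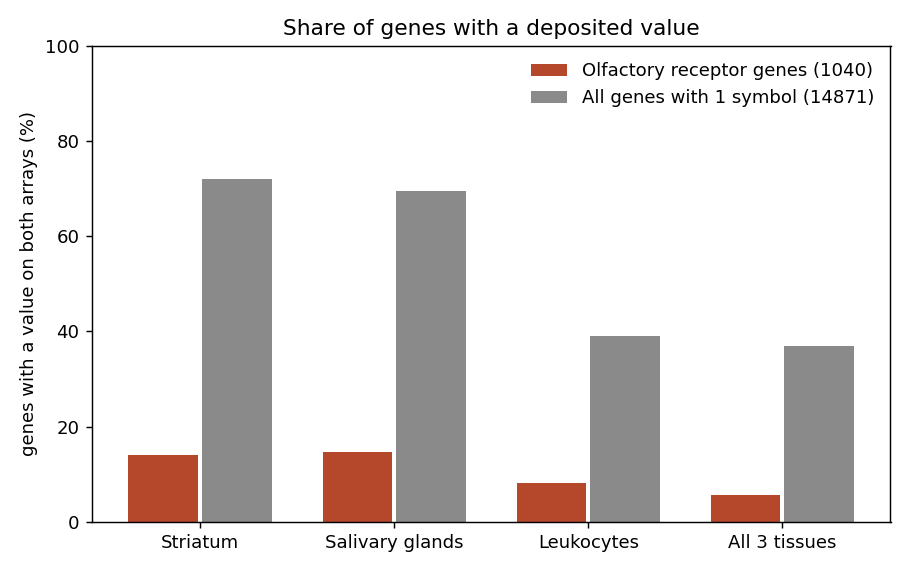
Bars give the share of genes, in percent, with a deposited value on both arrays of striatum, salivary glands, leukocytes or all 3 tissues, for 1040 olfactory receptor symbols (left bar) and all 14871 genes with 1 symbol (right bar). The receptor bars stand at 13.9%, 14.7%, 8.08% and 5.58%, below the bars of all genes in every tissue.

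The receptor genes with values were spread unevenly over the tissues. Of the 193, 58 (30.1%) had values on both arrays of all 3 tissues, against 46.9% of all genes valued somewhere, and 67 (34.7%) in striatum and salivary glands alone, against 33.6%. Leukocytes were the only tissue with values on both arrays for 20 receptor genes (10.4%), whereas 81 of all genes (0.692%) were so placed. Salivary glands alone held 26 (13.5%, against 6.28%) and striatum alone 16 (8.29%, against 10.4%). These 20 genes included 5 class I genes, Or52a5, Or52ae9, Or52e19, Or52k1 and Or52n4.

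On every array the median ratio of the receptor genes was above that of all genes, and it was largest in leukocytes. In striatum the receptor median was 0.08 over no stimulus, with 0.08 over light touch, against -0.02 and -0.00 for all genes. In salivary glands it was 0.16 over no stimulus, with 0.06 over light touch, against -0.01 and 0.00 for all genes. In leukocytes it was 0.27 over no stimulus, with 0.42 over light touch, against 0.01 and 0.02 for all genes. The comparison with other single-probe genes came out alike, since their medians lay between -0.04 and 0.06 on the 6 arrays.

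**Figure D2:**
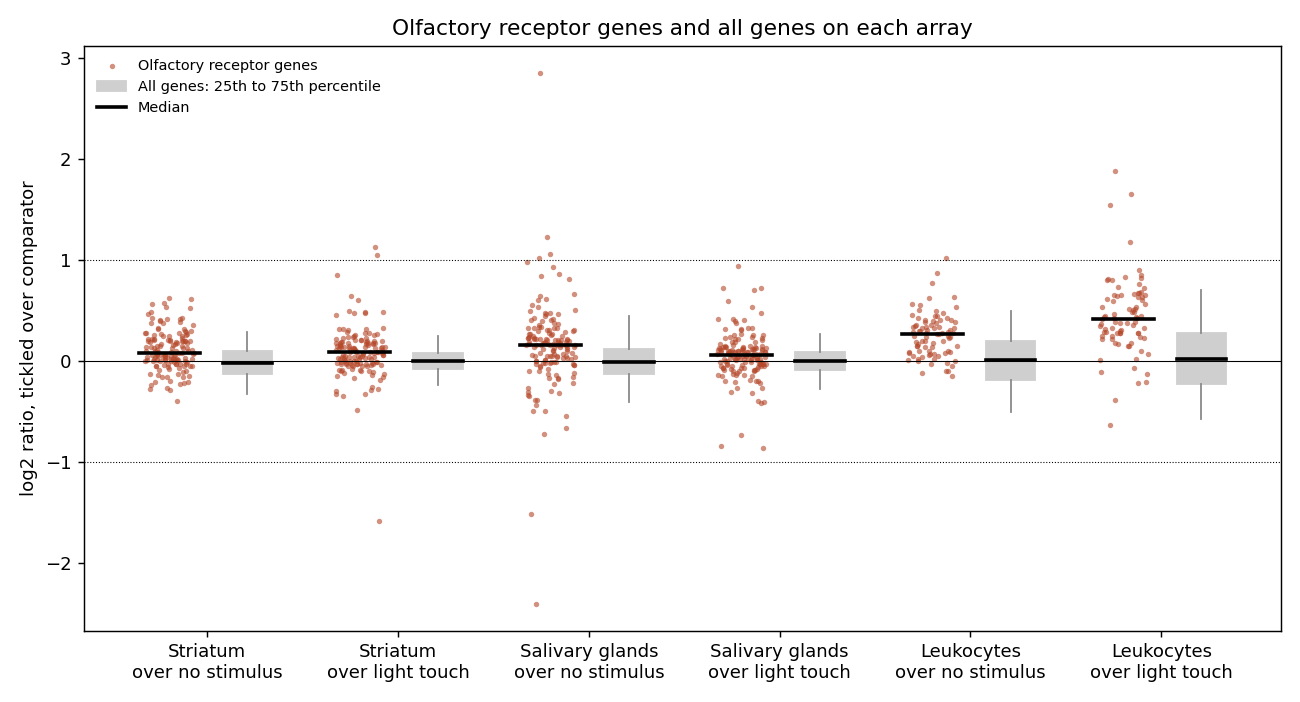
Each point is the log2 ratio (tickled over comparator) of 1 olfactory receptor gene on 1 of the 6 arrays, with a black bar at their median. Beside the points, the grey box spans the 25th to the 75th percentile of all genes, thin lines reach the 5th and 95th percentiles, and dotted lines mark 2-fold. The receptor medians lie above 0 on each array, from 0.06 in salivary glands over light touch to 0.42 in leukocytes over light touch.

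Most receptor ratios lay above 0. Over no stimulus, 105 of 145 receptor genes were above 0 in striatum (72.4%, against 45.1% of all genes), 111 of 153 in salivary glands (72.5%, against 48.4%) and 75 of 84 in leukocytes (89.3%, against 51.8%). Over light touch the counts were 97 in striatum (66.9%, against 49.1%), 99 in salivary glands (64.7%, against 50.0%) and 77 in leukocytes (91.7%, against 52.0%). The excess above 0 was thus found on every array, and in leukocytes nearly the whole set lay on the high side. The quartiles of the receptor genes ran from -0.00 to 0.22 in striatum over no stimulus, and from 0.25 to 0.64 in leukocytes over light touch.

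Receptor ratios also lay somewhat farther from 0 than those of other genes, which in part restates their shift above 0. The median absolute log2 ratio was 0.143 for receptor genes in striatum over no stimulus, against 0.131 for other single-probe genes and 0.116 for all genes. It was 0.207 in salivary glands over no stimulus, against 0.135 for other single-probe genes, and 0.104 over light touch, against 0.0983. In leukocytes it was 0.422 over light touch, against 0.247, and 0.268 over no stimulus, against 0.197. Striatum over light touch gave 0.127, against 0.0861. The gap was thus widest in leukocytes over light touch and narrowest in salivary glands over light touch. Distance from 0 is not spread. In leukocytes over light touch the receptor quartiles, 0.25 and 0.64, lay closer together than those of all genes, -0.22 and 0.27. The same held in leukocytes over no stimulus. In striatum over light touch and on both salivary arrays the receptor quartiles lay farther apart.

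The receptor genes were also set beside other genes with the same number of valued arrays. Among genes valued on all 6 arrays, the 58 receptor genes had a median of 0.11 in striatum over no stimulus, against 0.00 for 5432 other genes. In leukocytes over light touch the same 58 had a median of 0.37, against 0.01. Among genes valued on 4 arrays, 47 receptor genes had a median of 0.06 in striatum over no stimulus, against -0.05 for 3270 other genes, but 0.00 over light touch, against -0.01. The higher receptor median held at every number of valued arrays except 1: over light touch in striatum, 4 receptor genes valued on 2 arrays had a median of -0.12, against -0.04 for the other genes. In leukocytes over no stimulus the 14 receptor genes valued on 2 arrays had a median of 0.17, and 43 other genes so valued had 0.14.

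**Figure D3:**
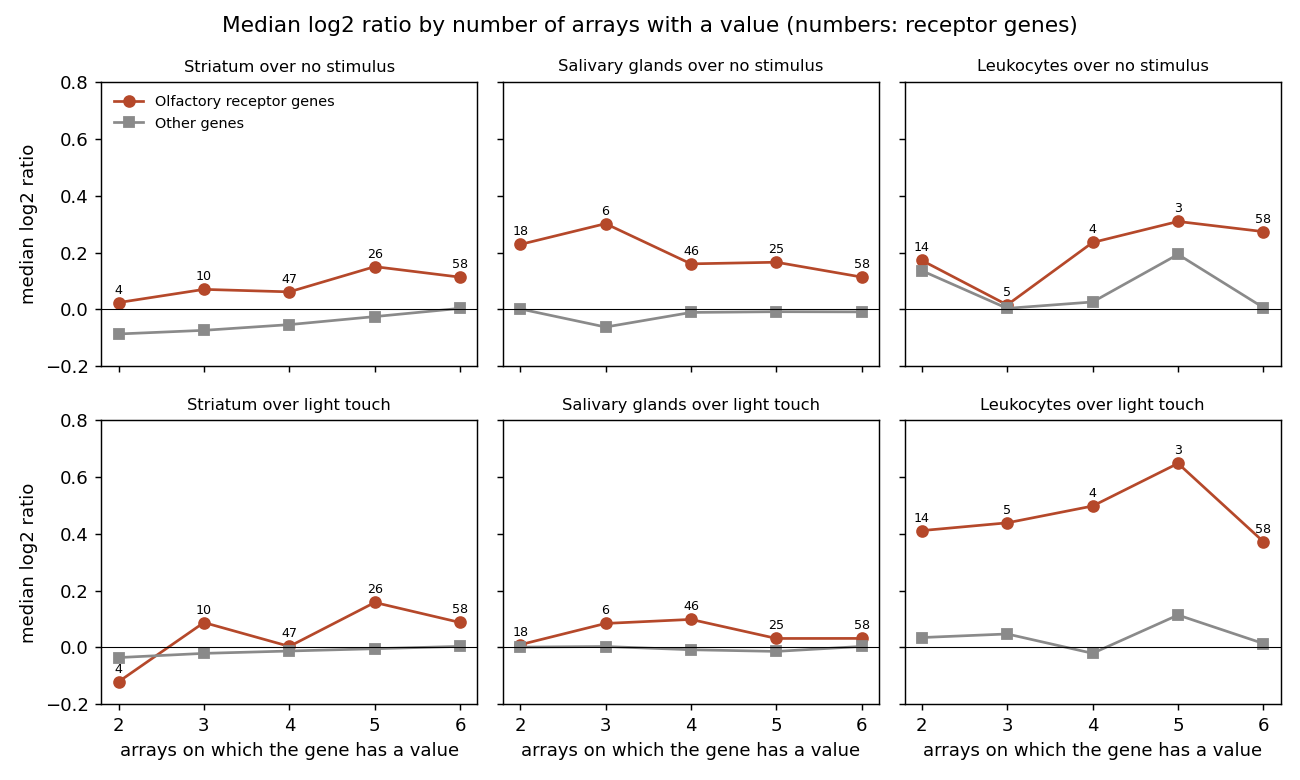
Median log2 ratio on each array, by the number of arrays on which a gene has a value, for olfactory receptor genes (circles, with their number) and all other genes (squares), over genes valued on both arrays of the tissue. The circles lie above the squares at all points but 1, striatum over light touch at 2 arrays, where 4 receptor genes have a median of -0.12.

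The 58 receptor genes valued on all 6 arrays allow the sign of each gene to be compared between tissues. Over no stimulus, 33 of them (56.9%) were above 0 in all 3 tissues, against 16.1% of the 5490 genes valued on all 6 arrays, and 2 (3.45%) were below 0 in all 3, against 15.8%. Over light touch, 28 (48.3%) were above 0 in all 3 tissues, against 17.4%, and 2 (3.45%) were below 0, against 15.0%. The genes below 0 in all 3 tissues were Or7g21 and Or4a77 over no stimulus, and Or51v8 and Or4c122 over light touch. Or7g21 had a striatal ratio of -0.26, a salivary one of -0.13 and a leukocyte one of -0.12, while those of Or4a77 were -0.00, -0.27 and -0.00. Most receptor genes lay above 0 on each array taken alone, so these shares in part restate that shift. The number of genes above 0 in all 3 tissues that the shares of each array alone would give was not counted. Since the 3 tissues were hybridised with tickled RNA in Cy5 throughout, a sign shared by the tissues and one set by the dye cannot be told apart.

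Over no stimulus, the gene that lay farthest above 0 in its lowest tissue was Or8c10b, whose coding start is shown above. Its striatal ratios were 0.41 over no stimulus, with 0.31 over light touch; the salivary ones were 0.27 and 0.18 and the leukocyte ones 0.39 and 0.28. All 6 values lay in a narrow band above 0 and none reached 1.5-fold. Over light touch it was Or13p5, with a striatal ratio of 0.19, a salivary one of 0.25 and a leukocyte one of 0.35; over no stimulus this gene had 0.20, 0.46 and 0.40. The genes next in rank by their lowest tissue over no stimulus, Or8s8, Or10d5, Or10am5, Or2v2, Or6al2 and Or2t45, were also above 0 on all 6 arrays. So were further receptor genes, among them Or5h26, Or5p50 and Or51a25. The share of all genes above 0 on all 6 arrays was not counted. For Or2t45 the ratios over no stimulus were 0.19, 0.29 and 0.15 in the same order of tissues, and 0.11, 0.14 and 0.64 over light touch, so that its leukocyte value over light touch stood above its other 5.

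Other genes valued on all 6 arrays also had their highest ratio in leukocytes over light touch. Or6al2 had 0.81 there, with striatal ratios of 0.19 and 0.21 and salivary ratios of 0.16 and 0.12. Or14j5b had 0.85 there, and between -0.13 and 0.28 on the other arrays. Or2w2 had 0.80 there but 0.02 in leukocytes over no stimulus and -0.39 in salivary glands over no stimulus. Or8b59 ran the other way, with -0.64 in leukocytes over light touch and 0.45 in salivary glands over no stimulus.

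Few receptor genes reached 2-fold, although on each array where any did, their share either way was above that of all genes. In striatum over no stimulus 0 receptor genes reached 2-fold, against 0.0467% of all genes higher, 0.0841% lower and 0.131% either way. In striatum over light touch 2 were 2-fold higher (all genes 0.0654%) and 1 lower (0.0841%), or 3 either way (0.149%). The most in salivary glands were over no stimulus, where 4 were higher (0.947%) and 2 lower (0.909%), or 6 either way (1.86%). Over light touch that tissue had 0, against 0.155% of all genes higher, 0.0483% lower and 0.203% either way. In leukocytes over no stimulus 1 was higher (0.413%), 0 were lower (0.120%) and 1 passed either way (0.533%). Leukocytes over light touch had 4 higher (1.45%), 0 lower (0.224%) and so 4 either way (1.67%). These come to 13 genes, 10 higher and 3 lower, each with 1 probe. The receptor shares are out of 84 valued genes for leukocytes, 145 for striatum and 153 for salivary glands. They rest on at most 6 genes per array.

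At 1.5-fold the counts grew mainly on the high side, out of the same 145, 153 and 84 genes. As shares, the counts either way were near those of all genes in striatum and leukocytes over no stimulus. On the other arrays they were above them. In striatum over no stimulus 2 receptor genes were 1.5-fold higher (all genes 0.458%) and 0 lower (0.738%), or 2 either way (1.20%). Over light touch 5 were higher in striatum (0.710%) and 1 lower (0.514%), or 6 either way (1.22%). In salivary glands over no stimulus 13 were higher (2.94%) and 4 lower (2.55%), or 17 either way (5.49%). That tissue had 5 higher (0.793%) and 3 lower (0.551%) over light touch, or 8 either way (1.34%). In leukocytes over no stimulus 5 were higher (3.05%) and 0 lower (2.63%), or 5 either way (5.68%). Over light touch 27 were higher in leukocytes (8.05%) and 1 lower (4.75%), or 28 either way (12.8%). Leukocytes over light touch thus held the most receptor genes at 1.5-fold, on the array where all genes were also spread most widely to the high side. With the arrays scaled to 1 spread, the count either way there was 4, all of them higher. The share of all genes was not counted on that scale.

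**Figure D4:**
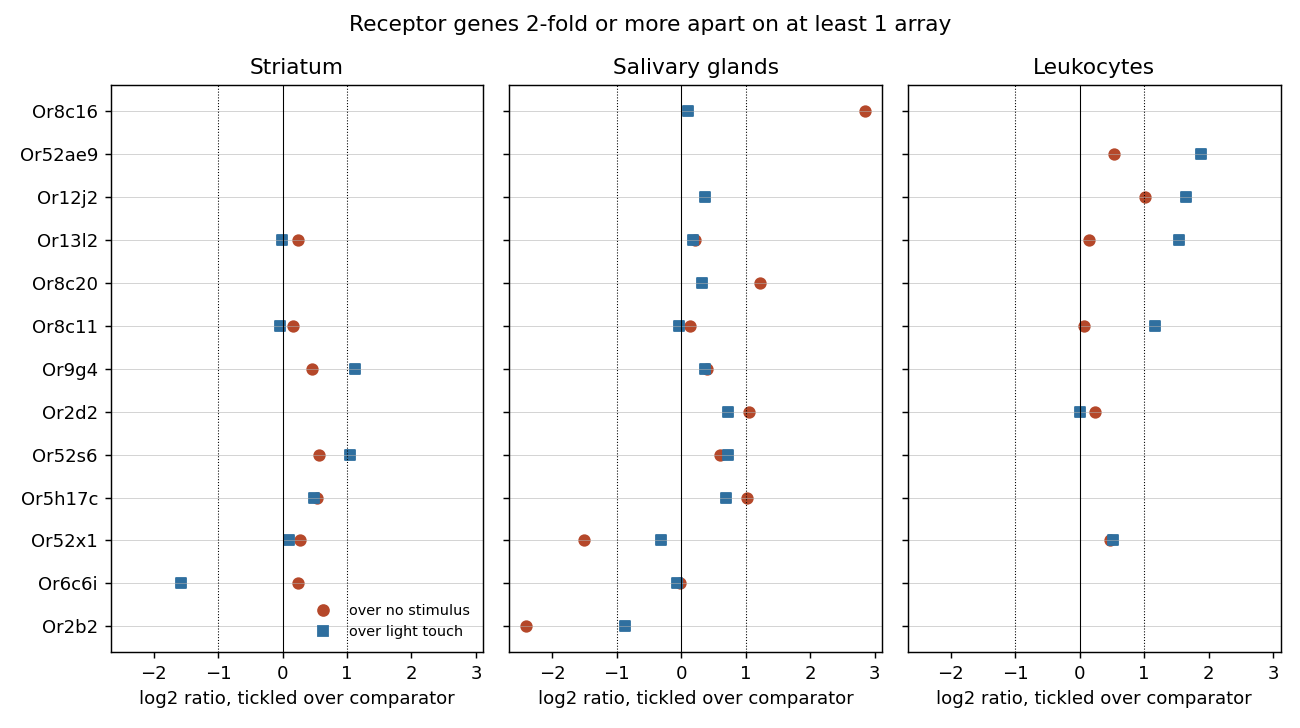
Log2 ratios (tickled over comparator) of the 13 receptor genes that were 2-fold or more apart on an array, by tissue, with circles for no stimulus and squares for light touch. A missing symbol means no value. Or8c16 reaches 2.85 and Or2b2 -2.41 in salivary glands over no stimulus, and the highest leukocyte value is 1.88 for Or52ae9 over light touch.

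The 2-fold genes of salivary glands were high or low mainly over no stimulus. Or8c16 had 2.85 over no stimulus, a 7.22-fold higher ratio, but 0.11 over light touch, and no value in the other tissues. Or8c20, of the same subfamily, had 1.23 over no stimulus, with 0.33 over light touch, again in salivary glands alone. The pair thus shared the high value over no stimulus and lay much nearer to 0 over light touch. The tickled side of both arrays is the same treatment but may not be the same extract. Or8c11, which is 96% identical to Or8c20 over the first 50 coding bases, had only 0.13 and -0.03 in salivary glands.

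Markers of the gland itself also lay far apart on the salivary array over no stimulus. Of the 10 gland markers, all valued, 5 were 1.5-fold higher and 3 lower there, from -4.03 for Csap1 to 3.03 for Smr3b, both genes of secreted salivary proteins. Egf had 2.14, Klk1 1.88 and Amy1 -1.47. Over light touch the list ran from -0.30 to 2.31, with 2 markers 1.5-fold higher and 0 lower. The part of gland makeup in the salivary receptor values was not tested.

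Or2d2 and Or5h17c were higher on both salivary arrays. Or2d2 had 1.06 over no stimulus, with 0.72 over light touch in salivary glands; its leukocyte ratios were 0.23 and 0.00. Or5h17c had 1.02 over no stimulus, with 0.70 over light touch in salivary glands, and 0.54 and 0.49 in striatum, so that all 4 of its values were above 0.4. Or5h17b, named after its values were seen and with the same first 50 coding bases, had 0.28 and 0.15 in salivary glands and 0.17 and 0.31 in striatum, and 0.38 in leukocytes over no stimulus. The probes of this pair thus gave ratios of 1 sign but not of 1 size.

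The low values of salivary glands belong to Or2b2 and Or52x1. Or2b2 had -2.41 over no stimulus, 5.30-fold lower, and -0.86 over light touch, with no value in the other tissues. Or52x1, a class I gene, had -1.51 over no stimulus, with -0.31 over light touch in salivary glands, but 0.27 and 0.11 in striatum and 0.47 and 0.51 in leukocytes. It was thus lower in salivary glands and above 0 on all 4 other arrays.

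In striatum the 2-fold values were all over light touch. Or9g4 had 0.46 over no stimulus, with 1.13 over light touch in striatum, and 0.40 and 0.37 in salivary glands. Or52s6, of class I, had 0.57 over no stimulus, with 1.05 over light touch in striatum, and 0.60 and 0.72 in salivary glands. Both genes were above 0 on all 4 of their arrays. The median of their values in other tissues, over both comparators, was then subtracted. This left 0.74 for Or9g4 and 0.39 for Or52s6 over light touch in striatum, below 2-fold. Or6c6i went the other way on 1 array alone, with 0.24 over no stimulus, with -1.58 over light touch in striatum, and -0.01 and -0.07 in salivary glands.

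In leukocytes the 2-fold values were all higher and all but 1 over light touch. Or52ae9 had 0.53 over no stimulus, with 1.88 over light touch, 3.67-fold, and no value elsewhere. Or12j2 had 1.02 over no stimulus, with 1.65 over light touch, and 0.37 in salivary glands over light touch; it was the only receptor gene 2-fold higher on both arrays of a tissue. Or13l2 had 0.14 over no stimulus, with 1.55 over light touch in leukocytes; its striatal ratios were 0.25 and -0.00 and its salivary ones 0.22 and 0.19. Or8c11 had 0.06 over no stimulus, with 1.17 over light touch in leukocytes; its striatal ratios were 0.15 and -0.04 and its salivary ones 0.13 and -0.03. For Or13l2 and Or8c11 a single array out of 6 held the large value.

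Below 2-fold, further genes were high or low on both arrays of a tissue. In salivary glands Or2n1l had 0.93 over no stimulus, with 0.94 over light touch, the closest to 2-fold on both, whereas Or5b124 had -0.67 and -0.84, and Or6x1 -0.44 and -0.73. In leukocytes Or2v2b had 0.86 and 0.64, Or5p50 0.63 and 0.90, and Or52k1 0.63 and 0.83. In striatum Or6f1 was the lowest gene over no stimulus with -0.40, and had -0.33 over light touch. These genes show that values on the 2 sides of 0 occurred together in salivary glands and striatum, while in leukocytes the low side was nearly empty. Among genes valued on both leukocyte arrays, the lowest values were -0.15 over no stimulus (Or52a5) and -0.64 over light touch (Or8b59). Or10u3, named after its values were seen, had -0.20 in leukocytes over no stimulus and no value over light touch.

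Class I and class II receptors had medians close to each other on most arrays. In leukocytes the class I median was 0.29 over no stimulus, with 0.44 over light touch, against 0.25 and 0.41 for class II. In striatum it was 0.07 and 0.08, against 0.09 and 0.09. Salivary glands over no stimulus gave the widest gap, 0.01 for 14 class I genes, against 0.16 for 139 class II genes, and 7 of those 14 class I genes were above 0. Over light touch the salivary medians were 0.05 for class I, against 0.06 for class II.

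Among single families, Or52 had the only negative median in salivary glands over no stimulus, -0.13, in which Or52x1 (-1.51), Or52h7 (-0.55) and Or52s1b (-0.49) took part. Or52s6 of the same family was high there at 0.60. In leukocytes over no stimulus all 21 valued genes of family Or2 were above 0, with a median of 0.15, and 19 of 21 over light touch, with a median of 0.42. All 6 valued genes of family Or13 were above 0 on both leukocyte arrays, with medians of 0.39 and 0.39. In striatum the 6 valued genes of family Or7 had a median of -0.15 over no stimulus, the lowest of any family and array.

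**Figure D5:**
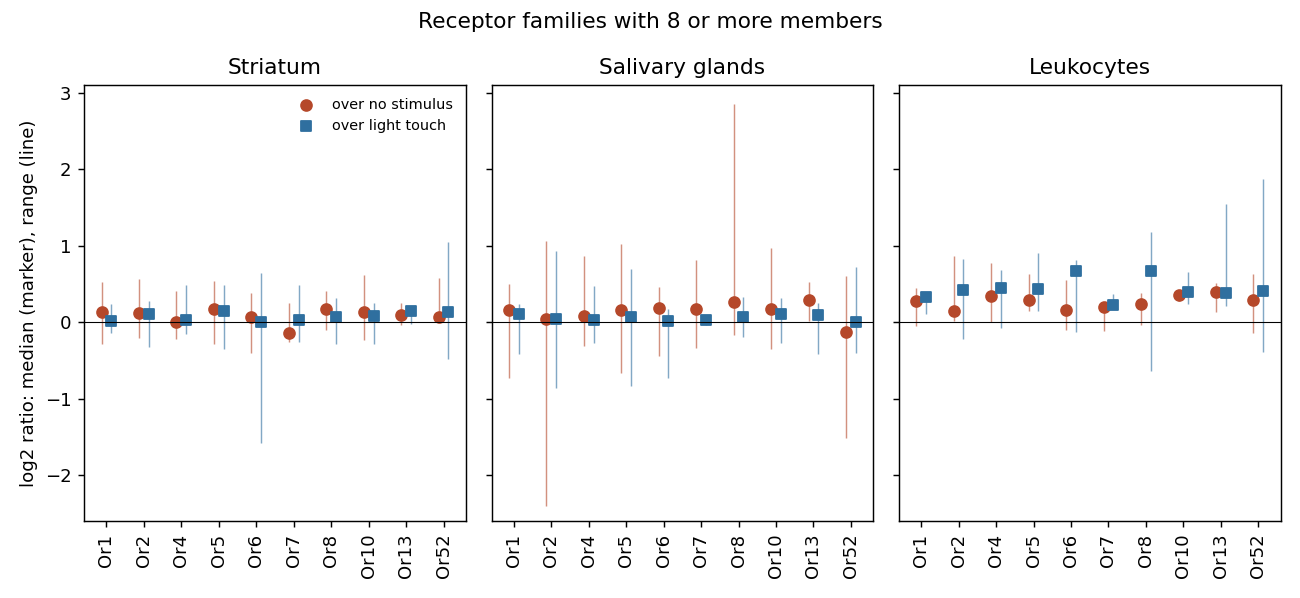
Median (marker) and range (line) of the log2 ratio for receptor families with 8 or more genes, in each tissue, with circles for no stimulus and squares for light touch. All leukocyte medians lie above 0, while Or52 stands at -0.13 in salivary glands over no stimulus.

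The ratios of 4 receptors with a known ligand or a known site outside the nose, in rat or human, are given next; Or6a2 and Or1a1 were chosen for this after their values were seen. Or6a2, the rat I7 receptor for octanal, had 0.07 over no stimulus, with -0.17 over light touch in striatum, and 0.39 and 0.17 in salivary glands. Or1a1, whose human counterpart answers to citronellal, had striatal ratios of -0.14 and -0.05, salivary ratios of -0.50 and -0.42, and -0.26 in leukocytes over light touch. Or51e1, whose human counterpart is expressed in prostate, had -0.05 and 0.13 in striatum and 0.15 in salivary glands over no stimulus. Or2ag1, whose human counterpart answers to amyl butyrate, had 0.03 and -0.30 in striatum. Of these, Or1a1 was below 0 on all 5 of its arrays, against the direction of most receptor genes.

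The genes that match another of the 193 closely over the coding start show how far near copies gave like values. There were 18 such pairs at 90% or more. Or2t48 and Or2t48e, 94% identical, had 0.13 and 0.02 over no stimulus in striatum. On the same comparison the pair had 0.02 and -0.01 in salivary glands, with 0.05 and 0.23 in leukocytes. In subfamily Or1f, Or1f20 (named after its values were seen), Or1f26 and Or1f45 had 0.16, 0.24 and 0.23 in salivary glands over no stimulus, whereas Or1f20e, 94% identical to Or1f26, had -0.72 there and 0.45 in leukocytes. Near copies thus differed by more than 1.5-fold in places, and which transcripts each probe reads was not tested.

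Of the 2 receptor genes with 2 probes, Or5b123 had values from 1 probe only. The probes of Or8k39 differed in sign in striatum, with 0.29 and -0.31 over no stimulus, and 0.37 and -0.03 over light touch. In salivary glands they gave 0.11 and 0.13 over no stimulus and 0.05 and -0.15 over light touch, and only the first had leukocyte values, 0.27 and 0.67. The spread between probes of this gene was as wide as most receptor ratios.

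Class I receptors share a chromosome region with the beta-globin genes, which erythroid cells express. Or52ae9 lies 6 genes before Hbb-b1 in RefSeq order. Hbb-b1, on none of the gene lists, was picked after its values were seen, and the neighbours of most other 2-fold genes are not described. Hbb-b1 had -0.02 over no stimulus, with 1.34 over light touch in leukocytes, while Or52ae9 had 0.53 and 1.88. Or52a5 and Or52z1 lie nearer to Hbb-b1, 3 and 2 genes before it; Or52a5 had -0.15 and -0.39 in leukocytes, and Or52z1 had no leukocyte values. Or51q1d, 17 genes after it, had 0.32 and 0.67, and Or51v8, 10 genes before it, had -0.02 and -0.22. Or52s6, 38 genes before it, had no leukocyte values. In striatum Or52s6 had 0.57 and 1.05, while Hbb-b1 had -0.66 and -0.33. The receptor genes nearest to Hbb-b1 thus did not all follow it, and the part of red cell RNA in the value of Or52ae9 was not tested.

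Genes through which the receptors signal in the nose had medians on both sides of 0. Of the list of 22 olfactory transduction genes, 16 were valued on both arrays in striatum, with medians of -0.07 and -0.03 and 3 and 4 genes above 0. In salivary glands 12 were valued, with medians of 0.12 and -0.01 and 8 and 6 above 0, and in leukocytes 4 were valued, with medians of 0.02 and -0.01. Gnal, which in striatum serves dopamine and adenosine receptors as well, had -0.19 and -0.01 in striatum and -0.18 and -0.21 in salivary glands. Cngb1, a subunit of the cyclic nucleotide-gated channel, had 1.16 over no stimulus, with 0.51 over light touch in salivary glands, and Slc12a2, the chloride carrier that salivary acini also use, had 0.90 and -0.03. Gng13, the gamma subunit that partners Gnal in the nose and a marker of the sensory neurons, had -0.75 over no stimulus, with -0.13 over light touch, in salivary glands. Gng8, a G protein gamma subunit, was above 0 on all 6 arrays, with striatal ratios of 0.35 and 0.30, salivary ratios of 0.27 and 0.46, and leukocyte ratios of 0.51 and 0.86.

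Genes that help receptors to the cell surface had striatal medians of -0.00 and 0.00 (8 genes valued), salivary medians of -0.14 and -0.09 (7 genes) and leukocyte medians of 0.16 and 0.17 (5 genes). Rtp2, a receptor transporting protein, had -1.92 over no stimulus, with -0.20 over light touch in salivary glands. Factors that act in receptor gene choice, among them Lhx2, Ldb1 and the Ebf proteins, had striatal medians of -0.06 and 0.01 (13 genes valued), salivary medians of -0.14 and -0.07 (11 genes) and leukocyte medians of 0.11 and -0.04 (6 genes). Ebf2 had -0.58 and -0.14 in striatum, and Atf5, part of the feedback that ends receptor choice, had 0.76 and 0.09 in leukocytes. On these lists the salivary medians lay below 0 while the receptor genes' medians lay above it.

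Other chemoreceptor families had few values. Of 36 pheromone receptor genes of the Vom2r family, striatum had values for 3 (medians 0.18 and 0.09), salivary glands for 4 (0.37 and 0.04) and leukocytes for 3 (0.11 and 0.29). Of 16 trace amine-associated receptors (Taar), striatum had a value for 1 (0.10 and 0.09), salivary glands for 1 (0.11 and 0.12) and leukocytes for 2 (medians 0.32 and 0.42). Of the 11 Vom1r, 12 Tas2r and 2 Fpr symbols 0 were valued on both arrays of a tissue. The older rat symbols of the form Olr, 55 on the platform and outside the symbol rule, were added after the data were seen. Striatum had values for 9 of them (medians 0.10 and 0.11), salivary glands for 6 (0.11 and 0.05) and leukocytes for 4 (0.23 and 0.53). These Olr medians lay above 0 in each tissue, with all 4 genes above 0 on both leukocyte arrays.

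Some genes outside the receptor families also lay above 0 in leukocytes, on 1 or both arrays. Of all genes valued there, 51.8% did so over no stimulus and 52.0% over light touch. From 2 small families added after the data were seen, Defb22 had leukocyte ratios of -0.07 and 0.71 and Krtap1-5 of 0.16 and 0.42, each the only gene of 4 with values on both leukocyte arrays. The 2 medium spiny neuron markers valued in leukocytes, Adora2a (0.57 and 0.66) and Pde10a (0.30 and 0.35), had medians of 0.43 and 0.50 there. The 8 leukocyte markers had medians of 0.20 and 0.00, and 4 genes of the Ms4a family -0.49 and -0.14. High leukocyte ratios were thus found in a few picked genes outside the receptor families too. The 2559 other single-probe genes valued in leukocytes had medians of 0.03 and 0.06. No test sets the receptor genes apart from other genes.

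Markers of the cells that carry these receptors in the nose had values in part. Of 10 olfactory sensory neuron markers 9 were on the platform, and striatum had values for 4, salivary glands for 5 and leukocytes for 1; Cnga2, Cnga4, Ano2, Stoml3 and Rtp1 had none on both arrays of a tissue. The sensory neuron markers had medians of 0.03 and -0.07 in striatum and 0.27 and 0.01 in salivary glands. Omp, the olfactory marker protein, had 0.06 and -0.03 in striatum and 0.58 and -0.35 in salivary glands. Of the 5 supporting cell markers on the platform, 1 (Ermn, also a myelin gene) was valued, in striatum. Markers of the labelled tissues were better covered: 9 of 9 medium spiny neuron markers in striatum, 10 of 10 salivary gland markers in salivary glands and 8 of 9 leukocyte markers in leukocytes.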

How the data were processed

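The values are log2 ratios of tickled (Cy5) over comparator (Cy3), 1 per feature and array, as deposited by the authors; per the labels 500 ng of RNA was used per labelling. Agilent Feature Extraction 9.1 appears in the submitters' processing notes. How ratios were normalized, when one was left blank and which log base was used is stated in no source used here. Of 44290 features, 23535 carried 1 symbol in the platform annotation, 48 several and 20707 none; only the first entered. Probes of 1 gene were summarised by their median. Genes were counted by size (2-fold, 1.5-fold), without a test, beside all genes valued on both arrays of the tissue. The members and lists were chosen with earlier results of these data known.

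Genes named are the receptor genes 2-fold apart on an array, the 6 highest and 6 lowest per tissue, those valued on all 6 arrays, those with 2 probes, the class I genes and up to 5 genes of each list; others are marked as chosen after their values were seen. Coding starts were compared without gaps over 50 bases. The counting was tested on simulated data with planted shifts. Python 3.11.15, pandas 2.3.3 and numpy 2.4.6 were used. Alternatives were centring, scaling, the probe summary, natural logs, the value filter, the annotation match, subtraction of the other tissues' median and leaving out genes with close relatives.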

Additional observations from a re-analysis of the deposited data

Results flagged for a closer look

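For 3 receptor genes, ratios over the same comparator lay on opposite sides of 0 in different tissues, with at least 1 of them 2-fold. The difference between tissues was not tested in any of them, since each value is 1 array. Over light touch, Or13l2 had 1.55 in leukocytes and -0.00 in striatum. Over no stimulus, Or52x1 had -1.51 in salivary glands, with 0.27 in striatum and 0.47 in leukocytes. Over light touch, Or8c11 had 1.17 in leukocytes, with -0.04 in striatum and -0.03 in salivary glands. For Or13l2 and Or8c11 the opposing values lie so close to 0 that their sign is within the spread between probes of a gene, 0.0853 or more as a median standard deviation.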

How the results depend on the processing

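No paired analysis was possible because each comparison has 1 array. The alternative that leaves out genes by protein identity was not run, as no protein table was given; leaving out genes whose first 50 coding bases match another receptor at 90% or more was used instead, chosen after seeing the data, as were the percent above 0 and the set valued on all 6 arrays. The receptor medians stayed above 0 under all alternatives run, between 0.07 and 0.12 in striatum over no stimulus; for salivary glands the bounds were 0.11 and 0.23, and for leukocytes 0.20 and 0.39. Over light touch they were between 0.08 and 0.15, 0.03 and 0.09, and 0.24 and 0.60, by tissue in that order. Scaling and natural logs multiply each array by a positive factor, so they could not change the sign of a median. The annotation match kept all 193 genes, and the probe summary could alter at most the 2 genes with 2 probes. The sign was thus open mainly to centring, the value filter, leaving out close relatives and the set valued on all 6 arrays. Counts by size did depend on the scale, as their construction implies. The share of all genes past each fold was counted as deposited only. The receptor counts under other settings therefore have no such share beside them. At 2-fold, with both directions summed, the counts as deposited were 0, 3, 6, 0, 1 and 4 for striatum, salivary glands and leukocytes, no stimulus before light touch. With arrays scaled to 1 spread they were 6 in striatum over light touch, 7 in salivary glands over light touch, and 0 and 1 in leukocytes. Read as natural logs, salivary glands had 12 and 7, leukocytes 3 and 14. Taking every receptor gene with a value gave 1 in striatum over no stimulus. Without the genes found to have close relatives there were 1 in striatum over light touch and 3 in salivary glands over no stimulus. Only the 162 genes with an entry in the table of gene starts could be left out. The others were kept without being compared, among them the 2-fold genes Or9g4 and Or13l2. At 1.5-fold the counts as deposited were 2, 6, 17, 8, 5 and 28 in the same order. Scaled, striatum had 6 and 16, with 17 in salivary glands over light touch, and 2 and 4 in leukocytes. With natural logs striatum had 13 and 13, salivary glands 32 and 15, leukocytes 16 and 44. Every valued receptor gene gave 4 and 11 in striatum and 8 in leukocytes over no stimulus, and leaving out close relatives gave 1 and 1 in striatum and 8 and 4 in salivary glands. After scaling, 68.8% of the 1.5-fold genes in striatum over light touch were higher, against 83.3% as deposited, and the median absolute ratio there was 0.227. Among genes valued on all 6 arrays, 81.0% were above 0 in striatum over no stimulus. With a value on either array in place of both, 134 receptor genes were valued in leukocytes. The median of a gene's other tissues was taken over their arrays of both comparators. Subtracting it moved 31 of 40 values of the 2-fold genes by more than the spread between probes and changed the sign of 13, none of them 2-fold. Of the 10 2-fold values it could be applied to, 5 were no longer 2-fold: Or12j2 over no stimulus in leukocytes (0.65), Or2d2 (0.94) and Or5h17c (0.51) over no stimulus in salivary glands, and Or9g4 (0.74) and Or52s6 (0.39) over light touch in striatum. For Or12j2 the subtracted value was that of a single array, 0.37 in salivary glands over light touch. Single probes, 1 array per comparison and ratios without intensities limit every value of a single gene.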

Other observations

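Further large receptor values on arrays whose partner array gave none are listed here without explanation, chosen by their size. Or10a2 had 1.70 in leukocytes over light touch and no value over no stimulus; its other values were 0.21 and 0.19 in striatum and 0.43 and 0.14 in salivary glands, over no stimulus before light touch. Or8b101b had -1.43 in striatum over no stimulus, and Or4f59 and Or4x5 had -1.12 and -1.17 in salivary glands over no stimulus; these 3 genes had values on both arrays of no tissue.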
